A study of Mus musculus with 10 samples.

Results

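In the GENCODE M21 annotation of the mouse genome (mm10), 128 of 21851 protein-coding genes carried a symbol in the series Zfp700 to Zfp999, with no suffix. These genes, called members here, were chosen by name alone and lie on 17 chromosomes, with 24 on chromosome 7, 21 on chromosome 17, 16 on chromosome 4, 14 on chromosome 8 and 13 on chromosome 2. A member was given a promoter peak in a library when an ATAC-seq peak summit lay within 1 kb of the start of any of its protein-coding transcripts. Of the annotated proteins, 113 of 128 held at least 3 C2H2 zinc finger motifs (median 11, range 0 to 23), and 93 held a signature of the KRAB box.

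C2H2 zinc finger proteins bind DNA through tandem fingers, and most of those with a KRAB box recruit the corepressor TRIM28, which brings the methyltransferase SETDB1 and heterochromatin protein 1 to the bound site. In mouse cells this machinery is best known for silencing endogenous retroviruses and other transposable elements. The genes arose largely by tandem duplication, so that many stand in arrays of close relatives with near-identical sequence.

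Chromatin accessibility was measured in G1E-ER4 cells, an erythroid progenitor line (called G1ER) that lacks the endogenous transcription factor GATA1 and carries a GATA1 and estrogen receptor fusion that β-estradiol switches on to start red cell differentiation. Untreated cells (0 h) and cells given 1e-07 M β-estradiol for 2, 6, 12 and 24 h were profiled, with 2 libraries at each time and about 50000 cells per library. All groups carried the same fusion and grew with stem cell factor and erythropoietin. Per the study the replicates are 2 independent experiments with this clonal line, so all p-values refer to a single clone. The permutation tests over libraries mix the spread between times with that between experiments. Each library is a list of 10698 to 19859 summits of 1 bp with a score (minus log10 of the q-value, from 1.30 up), and the read depth behind a list is unknown. The smallest list was replicate 2 of 24 h and the largest was replicate 2 of 6 h. Among erythroid genes, Zfpm1 had a promoter peak in all 10 lists and Epor in 9, whereas Alas2, Slc4a1, Hbb-bt and Hba-a1 were in none. None of 16 marker genes of T cells, B cells, macrophages, hepatocytes, muscle, neurons or embryonic stem cells had a promoter peak in any list.

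The promoters behind the results differ in base composition and in how often their sequence recurs in the genome. The sequences below are the 250 bases before a RefSeq transcript start (GRCm38.p6, the mm10 assembly), 5′ to 3′ on the gene's strand. The first 4 belong to members with a promoter peak in all 10 lists, and capitals mark CG dinucleotides. The Zfp787 window (chr7:6155966-6156215, minus strand) held 22 CG dinucleotides, Zfp963 (chr8:69749963-69750212, minus strand) 5, Zfp809 (chr9:22225462-22225711, plus strand) 11 and Zfp983 (chr17:21650361-21650610, plus strand) 4.
Zfp787: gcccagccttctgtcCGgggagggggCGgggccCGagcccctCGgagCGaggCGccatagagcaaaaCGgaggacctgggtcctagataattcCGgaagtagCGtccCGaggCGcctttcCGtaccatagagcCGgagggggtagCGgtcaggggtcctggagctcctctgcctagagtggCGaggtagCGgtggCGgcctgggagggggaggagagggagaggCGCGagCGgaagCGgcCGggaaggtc
Zfp963: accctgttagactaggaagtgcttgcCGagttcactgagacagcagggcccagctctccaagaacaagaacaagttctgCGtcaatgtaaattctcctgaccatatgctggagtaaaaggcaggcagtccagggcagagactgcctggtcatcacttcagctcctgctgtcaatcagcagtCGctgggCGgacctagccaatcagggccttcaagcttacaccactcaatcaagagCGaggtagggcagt
Zfp809: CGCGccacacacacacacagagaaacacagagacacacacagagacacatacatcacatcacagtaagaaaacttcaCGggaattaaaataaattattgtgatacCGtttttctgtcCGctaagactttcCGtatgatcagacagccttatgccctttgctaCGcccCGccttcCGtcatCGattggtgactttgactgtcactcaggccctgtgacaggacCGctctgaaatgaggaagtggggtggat
Zfp983: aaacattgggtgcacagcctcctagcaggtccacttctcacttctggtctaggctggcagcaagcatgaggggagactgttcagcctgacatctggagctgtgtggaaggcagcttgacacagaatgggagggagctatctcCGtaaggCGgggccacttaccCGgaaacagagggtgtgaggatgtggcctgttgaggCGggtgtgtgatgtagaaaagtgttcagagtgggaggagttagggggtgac

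The next promoters belong to members whose peak was called in some lists only, Zfp949 (chr9:88547770-88548019, plus strand, 6 CG dinucleotides, 6 lists) and Zfp952 (chr17:32992889-32993138, plus strand, 7 CG dinucleotides, 4 lists). They are followed by Zfp979 (chr4:147642509-147642758, minus strand, 2 CG dinucleotides), in the array on distal chromosome 4, which had no promoter peak in any list. Capitals again mark CG dinucleotides.
Zfp949: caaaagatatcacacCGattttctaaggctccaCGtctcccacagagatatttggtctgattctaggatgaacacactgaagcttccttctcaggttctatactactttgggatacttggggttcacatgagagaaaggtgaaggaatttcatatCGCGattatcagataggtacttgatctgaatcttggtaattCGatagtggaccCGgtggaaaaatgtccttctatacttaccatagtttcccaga
Zfp952: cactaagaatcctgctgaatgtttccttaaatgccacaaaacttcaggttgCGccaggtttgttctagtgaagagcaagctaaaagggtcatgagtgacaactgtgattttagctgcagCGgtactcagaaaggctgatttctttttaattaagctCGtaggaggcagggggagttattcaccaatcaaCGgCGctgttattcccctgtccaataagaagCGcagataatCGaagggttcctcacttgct
Zfp979: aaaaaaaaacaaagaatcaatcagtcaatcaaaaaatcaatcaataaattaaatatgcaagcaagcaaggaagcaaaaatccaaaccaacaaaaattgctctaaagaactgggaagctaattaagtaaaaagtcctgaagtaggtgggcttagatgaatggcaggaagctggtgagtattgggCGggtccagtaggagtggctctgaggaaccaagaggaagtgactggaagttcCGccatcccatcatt

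The last pair comes from distal chromosome 2 and had no promoter peak in any list. Zfp968 (chr2:175372186-175372435, plus strand) and Zfp973 (chr2:176670272-176670521, plus strand) differ at 1 of these 250 bases, A106G from Zfp968 to Zfp973 with positions counted from 1 at the 5′ end, which is shown in capitals. Within 1 kb of either start, 0% of the 75-base words occur once in the genome.
Zfp968: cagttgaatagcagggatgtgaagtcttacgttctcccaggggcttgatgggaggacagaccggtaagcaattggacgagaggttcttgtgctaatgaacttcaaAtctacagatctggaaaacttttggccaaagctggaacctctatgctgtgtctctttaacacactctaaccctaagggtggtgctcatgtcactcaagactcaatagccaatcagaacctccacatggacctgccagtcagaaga
Zfp973: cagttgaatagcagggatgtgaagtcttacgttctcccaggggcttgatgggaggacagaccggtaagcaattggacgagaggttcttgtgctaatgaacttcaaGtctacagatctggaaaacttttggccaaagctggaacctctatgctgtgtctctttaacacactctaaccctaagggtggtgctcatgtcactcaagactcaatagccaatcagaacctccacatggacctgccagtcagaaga

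Between 46 and 62 members had a promoter peak in a library. The lists of 0 h held 55 and 46 members, those of 2 h 59 and 53, those of 6 h 55 and 62, those of 12 h 57 and 53, and those of 24 h 57 and 50 (replicates 1 and 2). The share was 42.7% ± 3.55 (SD, n = 10 libraries), against 37.1% ± 1.96 of the 21723 other protein-coding genes and 61.1% ± 3.86 of the 260 other zinc finger genes, defined as genes named Zfp, Zkscan, Zscan, Zik, Zim or Znf and a number. The members stood above all other genes in 10 of 10 libraries, by 5.67 ± 2.34 percentage points, and below the other zinc finger genes in 10 of 10 libraries, by 18.4 ± 1.64 points.

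**Figure D1:**
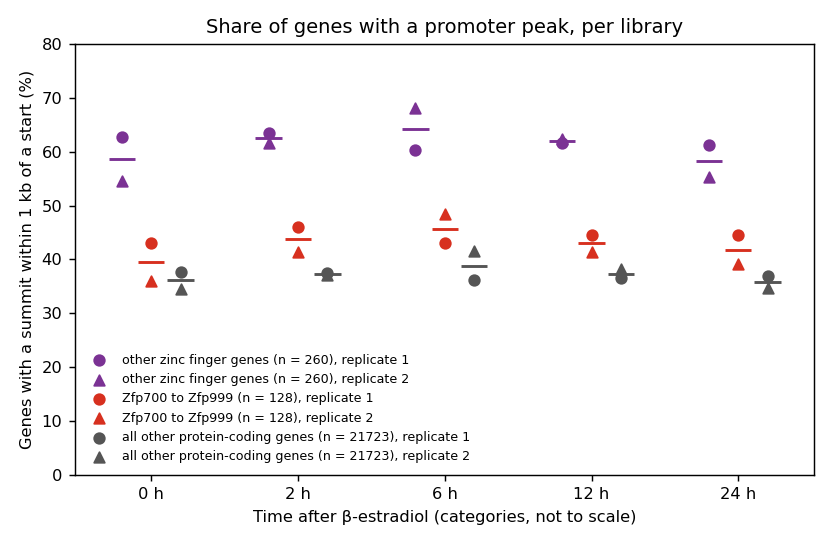
Percentage of genes with a summit within 1 kb of a transcript start in each of the 10 libraries, by time after β-estradiol (time points as equally spaced categories). Circles and triangles are replicates 1 and 2 and bars are means of 2 libraries: the members lie between 35.9% and 48.4%, above all other genes and below the other zinc finger genes in every library.

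Most members were either always or never listed. A promoter peak was called in all 10 libraries for 36 members (28.1%), in some for 37 (28.9%) and in none for 55 (43.0%), where the other genes had 25.9%, 18.0% and 56.1%. Of the 260 other zinc finger genes, 42.7% were in all 10 lists and 28.1% in none. On chromosome 7, 10 of 24 members were in all 10 lists and 7 in none, and on chromosome 8 these numbers were 6 and 5 of 14. On chromosome 17, 4 of 21 were in all 10 and 4 in none, with 13 in between. Chromosomes 4 and 2 had none in all 10 lists, and 14 of 16 and 11 of 13 members there were in no list.

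To compare peak strength between lists of unequal size, the best score at each gene was turned into its percentile within its own list. The highest mean percentile among members was that of Zfp866 on chromosome 8, with 95.3 and 92.6 (0 h), 97.3 and 92.0 (2 h), 98.5 and 94.4 (6 h), 97.4 and 92.3 (12 h) and 97.3 and 91.5 (24 h) (mean 94.9 ± 2.64, SD, n = 10). All its values lay in the top 10% of their list, but a start of Atp13a1 lies within 2 kb of the Zfp866 start and peaks of the 2 genes cannot be told apart. Zfp706, which encodes a small protein with a single C2H2 match and no KRAB signature, had 94.3 and 77.4 (0 h), 82.2 and 94.7 (2 h), 86.1 and 95.3 (6 h), 74.3 and 92.6 (12 h) and 93.1 and 94.2 (24 h) (mean 88.4 ± 7.86). Its 24 h values lay within the range of its other libraries. Zfp963 and Zfp868, both KRAB zinc finger genes of the same array as Zfp866, followed with means of 87.0 ± 7.14 and 85.9 ± 7.50, and Zfp865, with 21 fingers and no KRAB signature, with 82.7 ± 11.3 (n = 10 each).

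The 5 lowest means among members listed in all 10 libraries were those of Zfp763 (48.2 ± 23.2), Zfp768 (49.0 ± 16.8), Zfp786 (51.1 ± 21.8), Zfp825 (54.1 ± 21.3) and Zfp746 (56.3 ± 18.2). Their spread between libraries was wider than that of the members at the top. Zfp763 had 55.3 and 17.1 (0 h), 60.5 and 26.6 (2 h), 63.1 and 54.4 (6 h), 71.8 and 40.5 (12 h) and 80.3 and 11.9 (24 h). Replicate 1 was the higher of the pair at all 5 times for Zfp763. Zfp746, which encodes the Parkin substrate PARIS, lay between 55.5 and 72.9 in 9 libraries and at 7.88 in replicate 1 of 12 h.

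**Figure D2:**
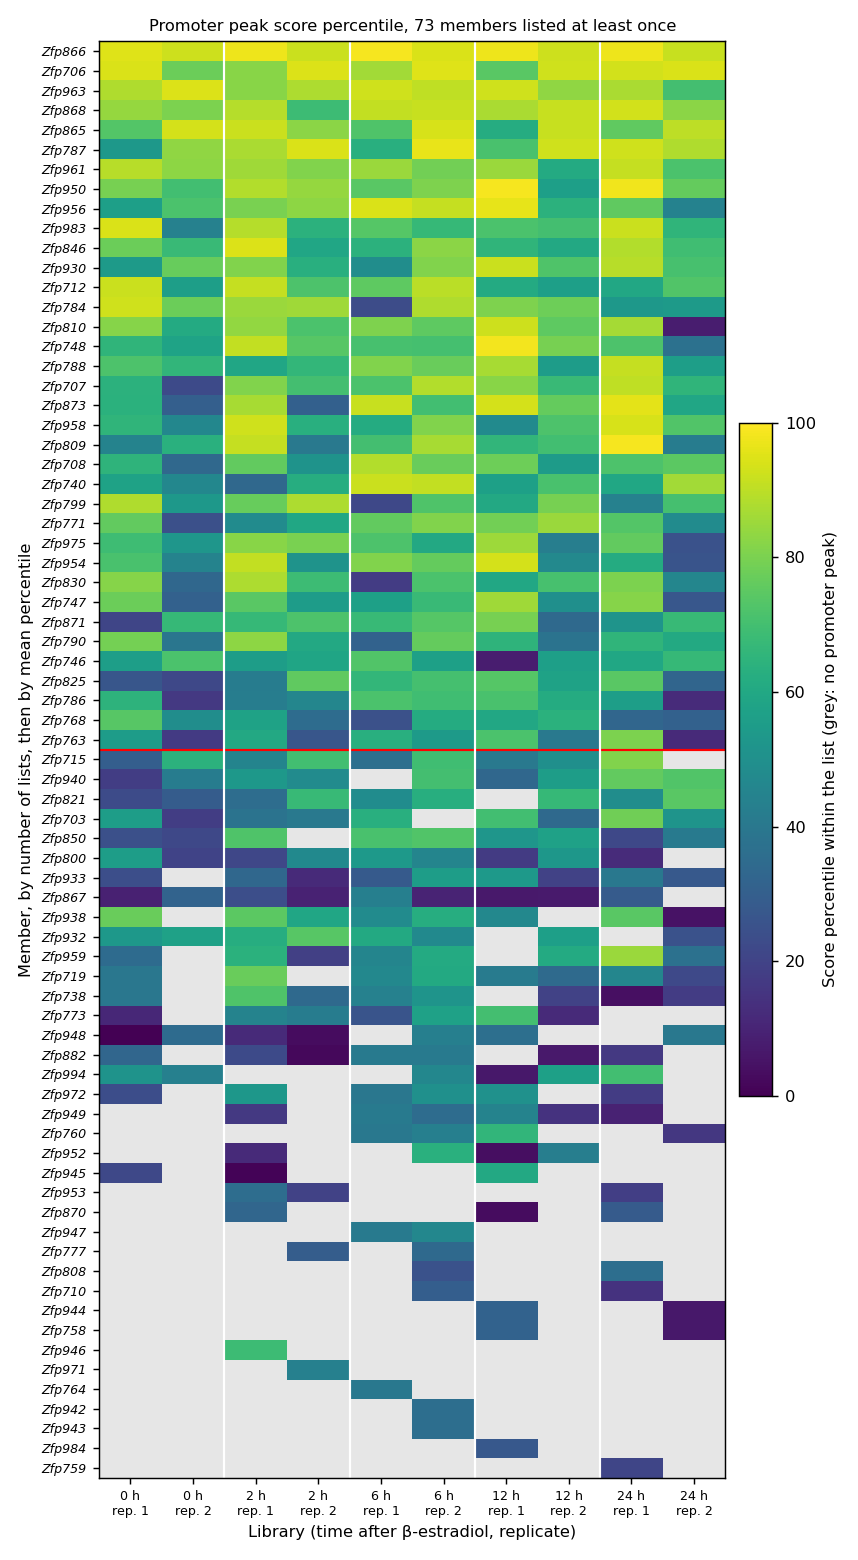
Score percentile of the promoter peak (colour, 0 to 100 within each list) for the 73 members listed at least once (rows) in the 10 libraries (columns), with grey where no peak was called. The 36 members above the red line were in all 10 lists, with mean percentiles from 48.2 to 94.9. The rows below the line show grey gaps in 1 to 9 libraries.

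Members of known function were found on both sides. Zfp809, which silences retroviral DNA in embryonic cells, was in all 10 lists, with 44.6 and 63.4 (0 h), 91.1 and 40.5 (2 h), 70.0 and 87.0 (6 h), 65.9 and 69.8 (12 h) and 98.8 and 42.1 (24 h). The replicates of 2 h and of 24 h lay further apart than any of its time point means. Zfp932, which binds and represses endogenous retroviruses, was in 8 lists (mean percentile 54.6). Zfp750, a regulator of epidermal differentiation, Zfp711 on the X chromosome, Zfp827 and Zfp957 were in none. Zfp703, which encodes a transcriptional corepressor, was in 9 lists (mean percentile 49.9). In all, 24 of 93 members with the KRAB signature and 12 of 35 without it were in all 10 lists, and 40 and 15 were in none. Among members with at least 90% unique 75-base words around the start, the numbers in all 10 lists were 20 of 48 with the signature (41.7%) and 12 of 33 without it (36.4%), and those in none were 20.8% and 39.4%.

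The uniqueness of the sequence around the starts moved with the calls. Per the labels, only reads that aligned to exactly one location were kept. Around the most upstream start of each gene (1 kb to both sides), the share of 75-base words found once in the genome was counted. A promoter peak could lie at any start of a gene, so some listed peaks may lie outside the counted sequence. The median share was 99.5% for the 36 members in all 10 lists, 99.9% for the 37 in some and 83.7% for the 55 in none. Of 18 members with fewer than 50% unique words, 1 had a promoter peak in any list (Zfp972, in 6 lists). Of 29 members with 50 to 90%, 14 were in any list and 4 in all 10. Of 81 members with at least 90%, 58 were in any list and 32 in all 10. The shares in any list in these bins, from low to high uniqueness, were 5.56%, 48.3% and 71.6% of the members. They were 2.17%, 17.9% and 47.4% of the other genes, and 0%, 50% and 73.8% of 4, 8 and 248 other zinc finger genes. The rise with uniqueness was thus not particular to the members. The part of this sequence property in the calls of single members was not tested, since read depth around the starts is not in the lists.

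When only genes with at least 90% unique words were counted, the members' share was 57.8% ± 4.46 (n = 10 libraries, 81 members), against 40.2% ± 2.11 of 19662 other genes and 62.8% ± 3.87 of 248 other zinc finger genes. The members remained above all other genes in 10 of 10 libraries (17.6 ± 3.46 points) and below the other zinc finger genes in 10 of 10 (5.0 ± 2.45 points). The gap to the other zinc finger genes was thus 18.4 points over all genes and 5.0 points in this subset.

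**Figure D3:**
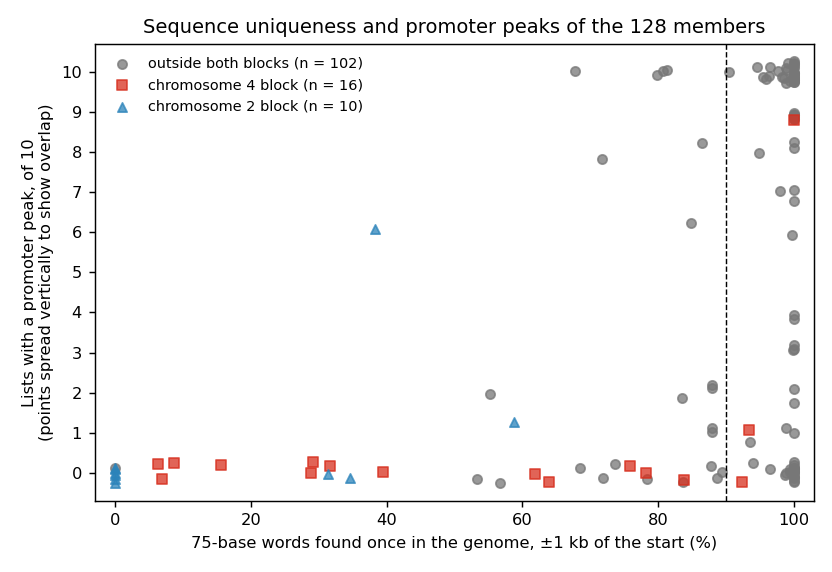
Number of lists with a promoter peak (vertical axis, 0 to 10, points spread to show overlap) against the percentage of unique 75-base words within 1 kb of the most upstream start (horizontal axis) for the 128 members. Members of the chromosome 4 block (squares) and of the chromosome 2 block (triangles) lie mostly to the left of the dashed line at 90% and at 0 lists.

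The arrays on distal chromosomes 4 and 2 were then described, as blocks chosen after the calls were seen. The chromosome 4 block spans 2.34 Mb (chr4:145510759-147848366) and holds 16 members, 15 of them with the KRAB signature and 14 in no list. The whole block had 0 to 3 summits per list, and the median share of unique words at its starts was 50.6%. The exceptions lie at its distal end: Zfp933, with 100% unique words, was in 9 lists and Zfp984, with 93.3%, in 1. Zfp985, with 92.3% unique words, was in none. The ratio of observed to expected CpG at the starts had a median of 0.199 in this block and was 0.492 at Zfp933. Zfp933 was absent only in replicate 2 of 0 h, with percentiles of 11.9 to 55.7 elsewhere. The chromosome 2 block spans 2.71 Mb (chr2:175372436-178078476) and holds 10 members, with 2 to 7 summits per list and a median of 0% unique words, and only Zfp972 (6 lists) and Zfp971 (1 list) had a promoter peak. Outside both blocks, 36 of 102 members were in all 10 lists and 33 in none.

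Several arrays outside these blocks mixed listed and unlisted neighbours. Zinc finger genes with starts at most 250 kb apart were chained into runs, and 22 runs held at least 2 members (89 members in all). Of these runs, which include those of both blocks, 8 held both a member in all 10 lists and a member in none. A further 5 held only members in no list and 1 held only members in all 10. Among the runs with only members in no list, that of Zfp935 and Zfp934 on chromosome 13 alone lies outside both blocks. The run with most members, on chromosome 17 (chr17:21383748-22424259), had 12, of which 1 was in all 10 lists (Zfp983), 9 in some and 2 in none (Zfp820 and Zfp995). Zfp983 had 94.4 and 43.8 (0 h), 88.7 and 64.3 (2 h), 73.7 and 67.0 (6 h), 71.8 and 70.2 (12 h) and 92.0 and 65.5 (24 h). Every value of Zfp983 exceeded 40, although only 67.8% of the words around its start were unique. In this run Zfp942 and Zfp943, and Zfp944 and Zfp758, share a promoter and one summit each.

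The array on chromosome 8 (chr8:69625548-69791178) held 5 KRAB members over 0.166 Mb. Zfp868, Zfp963 and Zfp866 were in all 10 lists, while Zfp964 (98.8% unique words) and Zfp869 (88.7%), which lie between them, were in none. By contrast, the run of 6 members on chromosome 13 (chr13:67061170-67813740) had 3 in all 10 lists (Zfp712, Zfp708 and Zfp748), 3 in some and none without a call.

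Members were called clustered when at least 2 other zinc finger genes started within 250 kb (84 members), paired with 1 (16) and isolated with 0 (28). The named-gene rule leaves out arrays of genes with other names, so that some paired or isolated members stand beside unnamed relatives. Clustered members had a promoter peak in 45.7% ± 4.02, paired in 28.1% ± 3.29 and isolated in 42.1% ± 4.70 (n = 10 libraries). Clustered exceeded isolated members in 9 of 10 libraries, by 3.57 ± 3.85 points, a mean within its SD. Among members with at least 90% unique words, 54 clustered members had 63.5% ± 4.71 and 23 isolated members 42.6% ± 4.0, and the difference was 20.9 ± 3.46 points (10 of 10 libraries). Without the blocks on chromosomes 4 and 2, which left 65 clustered and 27 isolated members, it was 12.8 ± 3.98 points. These blocks were chosen after the calls were seen and hold mostly unlisted and mostly clustered members. Leaving them out thus raises the clustered share by construction. With clusters defined within 100 kb the difference was 16.7 ± 3.91. With clusters defined within 500 kb it was 0.710 ± 4.12 points, and with a promoter window of 2 kb 0.714 ± 4.35. These are descriptions over genes that share chromosomal regions, and no test between the classes was made.

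**Figure D4:**
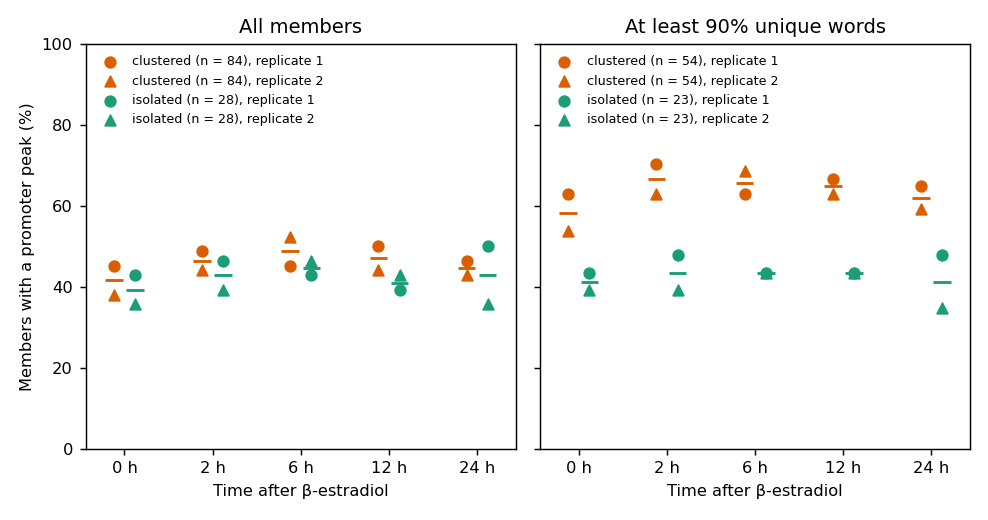
Percentage of clustered and of isolated members with a promoter peak in each library by time after β-estradiol, for all members (left) and for members with at least 90% unique words (right). Circles and triangles are replicates 1 and 2 and bars are means of 2 libraries: the classes overlap on the left and stand apart in all 10 libraries on the right, with means of 63.5% and 42.6%.

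The base composition of the starts also moved with the calls. The ratio of observed to expected CpG was taken within 500 bp of the most upstream start of each gene. Its median was 0.593 for members in all 10 lists, 0.522 for those in some and 0.347 for those in none. The other genes had 0.771, 0.721 and 0.275. In genes with at least 90% unique words and a ratio of at least 0.6, 26 of 36 members (72.2%), 84.8% of the other zinc finger genes and 73.7% of all other genes were in any list. With a ratio of 0.4 to 0.6 the numbers were 24 of 28 members (85.7%), 62.1% of the other zinc finger genes and 40.8% of all other genes. Under 0.4 they were 8 of 17 members (47.1%), 40.6% and 11.1%. In the bins under 0.6 the members' share was thus above, and at 0.6 or more below, those of both comparison sets, differences given here without a test. Zfp983 and Zfp950 were in all 10 lists with ratios of 0.288 and 0.293.

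**Figure D5:**
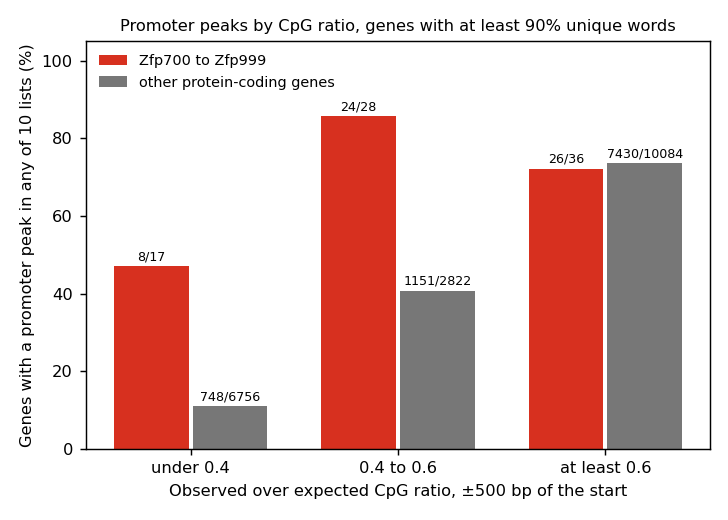
Percentage of genes with a promoter peak in any of the 10 lists, by the observed over expected CpG ratio within 500 bp of the most upstream start, for members and for all other protein-coding genes with at least 90% unique words. Numbers above the bars are listed genes of all genes in the bin: the bars are of similar height at a ratio of at least 0.6 and the member bar is the higher in both lower bins.

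The summits of members lay close to their starts. Over 547 member and library pairs the median offset was 2 bp downstream (quartiles −83 and 67), and 48.8% lay upstream, whereas the other genes had a median of −37 bp with 59.9% upstream. From the RefSeq starts of the printed promoters, the median summit offset was −168 bp for Zfp787, 113 bp for Zfp963, 87.5 bp for Zfp809, 13 bp for Zfp983 and 91 bp for Zfp949.

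The RefSeq windows of 300 bases (250 before to 50 after a start) were searched on both strands for 4 short words that do not contain each other. The search covered 1 entry for each of 109 members with an entry and 1 for each of 27025 RefSeq symbols, members included. The latter are called all promoters here and outnumber the 21851 protein-coding genes. Member entries were those nearest a GENCODE start and the others the first listed, so the sets compared are not alike. CCAAT was found in 73 members (67.0%) and 37.9% of all promoters, and among members in all 10, some and none of the lists in 71.9%, 54.3% and 73.8%. AGATAA or TGATAA, which are among the words bound by GATA factors, stood in 12.8% of members and 19.0% of all promoters. Other words of these factors were not searched. GGGCGG was found in 38.5% and 35.9%, with 46.9% of members in all 10 lists and 28.6% of those in none. CCATNTT was found in 22.0% and 16.3%, with 34.4% of members in all 10 lists and 16.7% of those in none. Among the 25 members in no list outside chromosomes 2 and 4, CCAAT stood in 60%, AGATAA or TGATAA in 20%, GGGCGG in 24% and CCATNTT in 24%. These matches describe letters in a window and not bound sites.

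Whether the members' promoters changed after β-estradiol was asked first of their share. The 8 treated libraries had 43.6% and the 2 untreated 39.5%, a difference of 4.10 points that did not pass the exact two-sided permutation test over libraries (45 arrangements of 8 and 2, p = 0.178, adjusted p = 0.444 over 4 measures, smallest possible 0.0222). The 0 h libraries had 43.0% and 35.9% and the treated libraries 39.1% to 48.4%, so that the groups overlap. With all lists cut to the size of the smallest, the difference was 3.12 points (exact permutation p = 0.0444). The excess of members over other genes was 6.24 points in treated and 3.36 in untreated libraries (difference 2.88, exact permutation p = 0.133, and p = 0.04, the smallest possible, when libraries were exchanged only within replicate numbers). The share did not follow hours (Pearson r = 0.00107, permutation p = 1, and Spearman rho = 0.112, p = 0.764, n = 10), nor without both 24 h libraries (r = 0.282, p = 0.519).

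Few members switched. A gain at a given time required a promoter peak in both libraries of that time and in neither untreated library, and a loss required the reverse. At 2 h, Zfp953 was gained (1 of 128 members, where 0.641% of all genes were) and Zfp994 lost (0.352% of all genes). At 6 h, Zfp949, Zfp760 and Zfp947 were gained (3 members, 2.34%, with 1.03% of all genes) and none was lost (0.0503%). At 12 h, Zfp949 and Zfp952 were gained (2 members, 1.56%, with 0.723%) and none was lost (0.32%), and at 24 h none was gained (0.467%) or lost (0.526%). Counts of 0 to 3 members are near these backgrounds.

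The peaks that switched were weak or not stable over time. Zfp949 had no peak at 0 h and percentiles of 16.5 in replicate 1 of 2 h, 41.0 and 35.2 (6 h), 44.8 and 14.8 (12 h) and 9.55 in replicate 1 of 24 h. It was thus listed in 6 of 8 treated libraries. Zfp760 had 39.9 and 43.3 (6 h), 65.7 in replicate 1 of 12 h and 16.1 in replicate 2 of 24 h. Zfp947 was listed at 6 h only, with 41.2 and 46.3. Zfp953 had 35.7 and 19.8 (2 h) and 18.7 in replicate 1 of 24 h. Zfp952 was listed in replicate 1 of 2 h (11.7), replicate 2 of 6 h (63.5) and both libraries of 12 h (3.87 and 42.6). Zfp994, lost at 2 h, had 51.5 and 43.4 (0 h), 46.3 in replicate 2 of 6 h, 6.33 and 56.8 (12 h) and 69.6 in replicate 1 of 24 h, so that its peak was called again at later times. The 5 gained members and the 1 lost member became 13 gained without replicate 1 of 0 h, 10 gained without replicate 1 of 6 h and 9 gained without replicate 2 of 12 h or of 24 h. The number lost was 4 without replicate 1 of 24 h and 2 or 3 without 7 other libraries. With a library left out, a call at its time rested on the remaining library, and without a 0 h library this held at every time. The shares of all genes under this looser rule were not counted, so these counts have no background.

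For the 36 members in all 10 lists, percentiles were fitted with limma over 5671 genes listed in all 10 libraries, with Benjamini-Hochberg adjustment over all of them. No member and no other gene (0%) passed an adjusted p of 0.05 at any time against 0 h or in the F-test across times. At an unadjusted p under 0.05 stood 0, 2, 1 and 0 members and 161, 198, 153 and 193 of all genes at 2, 6, 12 and 24 h. The members' median difference from 0 h was 7.57, 8.18, 7.47 and 5.02 percentile points, beside 2.21, 4.22, 1.67 and −0.37 over all genes fitted, with a median standard error of 17.8 for a single member. Of the 36 members, 29, 28, 26 and 22 were higher than at 0 h at these times, and 7, 8, 10 and 14 lower. All these comparisons share the same untreated libraries, so the counts are not independent. Over all members with a peak, replicate 2 of 0 h had the lowest median percentile of any library (50.8, against 64.0 in replicate 1). The matching counts over all genes fitted were not made.

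The members below the unadjusted threshold were Zfp740 and Zfp825. Zfp740, which encodes a protein with 2 C2H2 matches, had 57.7 and 46.3 (0 h), 33.8 and 62.3 (2 h), 92.0 and 90.7 (6 h), 56.8 and 71.3 (12 h) and 59.5 and 86.0 (24 h), with a difference of 39.3 ± 17.0 (SE) at 6 h (limma adjusted p = 1.0). Zfp825, a KRAB zinc finger gene, had 26.7 and 21.8 (0 h), 42.1 and 75.4 (2 h), 66.2 and 70.6 (6 h), 73.8 and 57.6 (12 h) and 74.5 and 32.6 (24 h), with a difference of 44.1 ± 19.2 at 6 h (limma adjusted p = 1.0). All treated values of Zfp825 lay above both untreated ones.

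Among the members in all 10 lists, the 5 with the largest difference of means between 24 h and 0 h were Zfp707, Zfp784, Zfp873, Zfp768 and Zfp825. Zfp707 had 64.3 and 22.6 (0 h) and 90.3 and 65.3 (24 h), a difference of 34.3. Zfp873 had 64.0 and 30.3 (0 h) and 96.1 and 59.1 (24 h), a difference of 30.5, with groups that overlap. Zfp784 had 92.9 and 77.4 (0 h) and 53.5 and 54.4 (24 h), a difference of −31.2, and Zfp768 had 73.8 and 49.2 against 32.9 and 30.9, a difference of −29.6. With 2 libraries at each time, none of these passed the adjusted test.

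The strength of clustered and isolated members was also compared. The median percentile of clustered members with a peak minus that of isolated ones was 8.05 and 8.33 (0 h), 16.7 and −3.90 (2 h), 11.1 and −1.96 (6 h), 5.48 and −6.78 (12 h) and −7.44 and −25.4 (24 h). Both 24 h values were below both 0 h values, and replicate 2 was the lower at all 4 treated times. The median of clustered members averaged 59.8 at 0 h and 59.1 at 24 h, and that of isolated members 51.6 and 75.6. The isolated median rests on 10 to 14 members per library. Over all libraries the mean of clustered minus isolated was 0.411 ± 12.2, and treated libraries did not differ from untreated ones by the exact permutation test (−1.53 against 8.19, difference −9.72, p = 0.33). This difference was −16.3 with equal list sizes, −4.40 with clusters within 500 kb, −6.31 without replicate 2 of 24 h and −1.05 for members in all 10 lists only, and it passed the test in none of them. Against hours the difference had a Pearson r of −0.76 (permutation p = 0.00841, adjusted p = 0.0336 over 4 measures) and a Spearman rho of −0.71 (p = 0.0282, n = 10), with r = −0.90 in replicate 1 (exact p = 0.05) and −0.95 in replicate 2 (exact p = 0.0167, n = 5 each). With values centred within replicate numbers r was −0.92 (exact permutation p = 0.0016, n = 10). The call depended on the last time point: without both 24 h libraries r was −0.43 (exact permutation p = 0.279), or −0.66 when centred (exact permutation p = 0.113), and without replicate 2 of 24 h alone it was −0.60 (permutation p = 0.0752), or −0.86 when centred (exact permutation p = 0.00868). It was looked for after the values were seen.

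The genes of the corepressor machinery that KRAB proteins use were listed at most of their promoters. Of 24 genes in a list fixed for this purpose, 23 were found in the annotation under their symbol, 16 of them in all 10 lists, where 25.9% of the genes other than the members were, 21 in any and 2, Chd3 and Mta1, in none. Trim28, the corepressor itself, had a mean percentile of 70.8, the methyltransferase gene Setdb1 71.7, the histone binding protein gene Rbbp4 93.9 and Trim24, a relative of Trim28, 97.0. Among the 16 fitted with limma none passed the adjusted test at any time, with 4 unadjusted p-values under 0.05 in 64 tests over the 4 times (6.25%, where all genes fitted had 3.11%). Smarcad1, a chromatin remodeller, was in no list at 0 h and in 6 of the 8 treated lists, with a mean percentile of 29.2. By the rule used for the members it was gained at 6 h and 12 h, as were 1.03% and 0.723% of all genes. It was picked from the list after its values were seen.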

How the data were processed

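Per the labels and the study's methods, about 50000 cells per library were tagmented with Tn5, reads were aligned to mm10 and those with a single location were kept. The submitters' processing notes name Bowtie 1.0.0, Picard and MACS2, while the study's methods name another Bowtie release, and which was used is unsettled. The authors deposited 1 list of summits per library, each with a score that is the −log10 q-value of MACS (lowest 1.30 to 1.35). The lists hold neither reads nor depth, so no interval or detection floor could be given, and a missing peak means only that none was called. Whether reads were shifted for Tn5 is not given in the sources used here.

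The members and the gene lists were chosen with earlier results of these data known. Starts were those of protein-coding transcripts in the GENCODE M21 basic set (41438 starts, 21851 genes, chromosomes 1 to 19, X and Y). Percentiles were 100 times (rank minus 0.5) over the list size. Proteins were translated from the annotation, fingers counted by the spacing of C2H2 residues and KRAB boxes by a short amino acid signature. Words of 75 bases were counted over both strands of the assembled chromosomes. Promoter sequences came from RefSeq (GRCm38.p6).

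Libraries were compared by exact two-sided permutation tests over splits (45, or 25 within replicate numbers), correlations with 100000 resamples, and percentiles with limma 3.58.1 (R 4.3.3, empirical Bayes with trend) over 5671 genes. On simulated data for 24 h against 0 h with 5671 genes, limma recovered 6 of 100 genes shifted by 20 percentile points and 24 of 100 shifted by 40, with 3 false calls. Deviations of same-numbered libraries from their time point means correlated between all 10 pairs of times (r = 0.15 to 0.30 over genes), so the replicate numbers were taken as pairing the libraries. The main splits, correlations and limma fit ignored this pairing, and several are also given within replicate numbers or with a replicate block. No 2 lists shared more than 0.786% of their exact summit positions. Named members were those gained or lost, among members in all 10 lists the 5 with the highest mean percentile, the 5 with the lowest and the 5 with the largest change from 0 h to 24 h, any that passed limma, and the run with most members. Members of known function, Zfp711, Zfp957, those in both blocks and in the runs on chromosomes 8 and 13, Zfp950 and Zfp740 were named after their values were seen. So was Smarcad1 among the corepressor genes. Alternatives covered the promoter window, list size, score threshold, start set, cluster distance, replicate block and leaving out each library.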

Additional observations from a re-analysis of the deposited data

How the results depend on the processing

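The members' share of 42.7% was 37.7% with equal list sizes, 35.2% with a score of at least 5, 57.8% with at least 90% unique words and 52.0% without the blocks on chromosomes 4 and 2. Both blocks were chosen after the calls were seen and hold mostly unlisted members. Leaving them out thus raises this share, and that of clustered members, by construction. The members' share was 42.1 to 43.5% with any library left out. The difference between treated and untreated libraries was 0.586 to 7.62 points with a library left out and passed the test only with equal list sizes (3.12 points, p = 0.0444 by exact permutation). The replicate block left this difference (4.10 points, exact permutation p = 0.2) and that of clustered minus isolated members (1.49 points, p = 0.76) on the same side of the threshold. The correlation of the share with hours changed sign within 500 bp (−0.0046), within 2 kb (−0.016), with a score of at least 5 (−0.22), for members with no other start within 2 kb (−0.085) and in replicate 2 alone (−0.040), and ranged from −0.33 to 0.28 with a library left out, never passing the test.

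Clustered minus isolated members (3.57 points) was 0.710 with clusters within 500 kb, 0.714 within 2 kb and 16.7 with clusters within 100 kb. It was 20.9 with at least 90% unique words, 12.8 without both blocks (raised by construction, as above) and 2.78 to 4.37 with a library left out. Its difference between treated and untreated libraries changed sign with a score of at least 5 (−1.34) and with clusters within 500 kb (−0.30) and was 0.510 to 2.55 with a library left out. The correlation of the rank difference with hours was −0.43 without both 24 h libraries (−0.66 with the replicate block) and −0.83 to −0.60 with a library left out. With a score of at least 5, 8 members were gained and 2 lost, with equal list sizes 2 were lost, and with a library left out 5 to 13 were gained and 1 to 4 lost. The shares of all genes gained or lost in these settings were not counted. The replicate block in limma called no member, as did the other alternatives of that fit. The cause of these shifts was not tested. The lists give called summits only, and 2 libraries per time cannot bring an exact test of a single time point past the threshold.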
